A study of Homo sapiens and Mus musculus with 10 samples.

Results

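Chemokine and interleukin receptors were followed as a set of genes in 2 myeloid lines treated with WM-1119, a small-molecule inhibitor of the histone acetyltransferase KAT6A. The set took every listed gene whose symbol begins with CCR, CXCR or ACKR and a number, with CCRL2 and CX3CR1, and every symbol that begins with IL, a number and R. IL3RA and mouse Il3ra were left out. This gave 65 of 27800 gene symbols for the human line MOLM-13 and 61 of 24493 for the mouse line ER-Hoxa9. A name rule also takes entries that are no receptor, namely the secreted antagonists IL1RN and IL36RN and the antisense RNAs IL10RB-AS1 and IL21R-AS1.

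MOLM-13 is a cell line from a human acute myeloid leukaemia, with a fusion of the MLL gene and an internal tandem duplication of FLT3. ER-Hoxa9 cells are mouse myeloid progenitors held undifferentiated by HOXA9 fused to an estrogen receptor domain, and all of them, controls included, grew in 0.5 µM β-estradiol and stem cell factor. WM-1119 was given at 4 µM to MOLM-13 (3 libraries) and at 2 µM to ER-Hoxa9 (2 libraries), for 4 days in both. The DMSO controls had 3 libraries of MOLM-13 and 2 of ER-Hoxa9, and both media held 10% serum. Each line stands for 1 genetic background and the doses differ, so a difference between the lines cannot be told apart from one of species or dose. Separate cultures are not stated for the replicates, so a p-value here reflects the spread among libraries, and that spread may be technical.

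Chemokine receptors are G protein-coupled receptors that steer leukocytes along gradients of small secreted proteins. The atypical chemokine receptors bind the same ligands without that signal and remove them. Most interleukin receptors pair a private chain with a shared one and signal through JAK kinases and STAT factors, while the IL-1, IL-18 and IL-17 families use adaptor proteins such as MYD88 and TRAF3IP2. In myeloid progenitors CXCR4 is known for retention in the marrow, and CCR2 and CXCR2 for the traffic of monocytes and neutrophils.

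The upstream sequences of IL12RB1 and IL2RA are shown because these were the receptors with the smallest p-values in MOLM-13, one higher and one lower with WM-1119. They come from the RefSeq table for GRCh38.p14, 250 bases each, 5′ to 3′ on the gene's own strand, ending at the base before the annotated start. Capitals mark a match to the PU.1 core, read on the other strand. The IL12RB1 window is chr19:18098928-18099177, minus strand. The IL2RA window is chr10:6062368-6062617, minus strand.
IL12RB1: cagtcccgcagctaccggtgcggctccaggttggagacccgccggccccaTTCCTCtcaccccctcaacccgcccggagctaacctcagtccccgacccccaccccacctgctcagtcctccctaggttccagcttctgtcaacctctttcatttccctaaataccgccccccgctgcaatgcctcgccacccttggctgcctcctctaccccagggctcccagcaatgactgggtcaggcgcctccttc
IL2RA: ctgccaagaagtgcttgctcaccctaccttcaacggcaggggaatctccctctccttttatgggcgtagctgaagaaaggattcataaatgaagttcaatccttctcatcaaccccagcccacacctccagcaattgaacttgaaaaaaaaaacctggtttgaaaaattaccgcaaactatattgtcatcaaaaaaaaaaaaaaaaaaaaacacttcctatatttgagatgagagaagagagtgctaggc

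Both strands of these windows were searched for 4 short patterns, and matches were allowed to overlap. The PU.1 core GAGGAA began 200 bases before the IL12RB1 start. It occurred in 23.6% of 35116 promoters and in 13 of the 29 tested MOLM-13 members that have a promoter in the table. The RUNX core TGTGGT occurred in 10.98% of promoters and in 9 of the 29 members, among them CXCR2, CCR1 and IL7R. The STAT palindrome TTCNNNGAA occurred in 6.57% of promoters and in 5 members, and the TATA box TATAAA in 10.7% and in 5 members. None of the 4 patterns occurred in the IL2RA window. These counts describe letters, and no binding was measured.

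Levels are given as TPM, in which each transcript takes a length-corrected share of its library, so that different genes can be compared. TPM carry no record of read number, so depth is unknown and no counting interval is given. The libraries listed 12112 to 12416 genes at 1 TPM or more in MOLM-13 and 11042 to 11446 in ER-Hoxa9. MOLM-13 libraries with the same replicate number resembled each other across treatments: log2 values correlated at 0.969 to 0.972 between them. In ER-Hoxa9, WM-1119 replicate 2 and DMSO replicate 2 were the most alike pair, with a correlation across genes of 0.981, and DMSO replicate 1 was the least like the WM-1119 libraries. Myeloid genes were abundant in both lines. PRTN3, a neutrophil granule protease, averaged 5598 ± 1527 TPM in WM-1119 and 5092 ± 2130 TPM in DMSO MOLM-13 cells (SD, n = 3 each), and CD34 was listed at 0. AZU1, the granule protein azurocidin, averaged 2256 ± 276 and 1786 ± 271 TPM in the same groups. Ctsg, the granule protease cathepsin G, averaged 2875 ± 502 TPM in WM-1119 and 2529 ± 212 TPM in DMSO ER-Hoxa9 cells (SD, n = 2 each). KAT6A transcript, the target of the drug, averaged 18.4 ± 3.95 TPM in WM-1119 and 18.3 ± 4.63 TPM in DMSO MOLM-13 cells. In ER-Hoxa9 cells Kat6a averaged 17.1 ± 0.653 TPM with WM-1119 and 15.4 ± 1.61 TPM with DMSO. An inhibitor of the enzyme need not alter the transcript, so this checks no label.

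In MOLM-13 31 of 65 members (47.7%) had a mean of at least 1 TPM over all libraries, against 44.7% of all genes, and 13 reached 10 TPM. In ER-Hoxa9 20 of 61 members (32.8%) had such a mean, against 46.4% of all genes, and 10 reached 10 TPM. The summed level of the members was 527, 578 and 511 TPM in the WM-1119 libraries of MOLM-13 and 466, 557 and 373 TPM in its DMSO libraries. In ER-Hoxa9 it was 480 and 459 TPM with WM-1119 and 405 and 436 TPM with DMSO. The 5 most abundant members held 55.6% to 59.5% of that sum in MOLM-13 and 74.3% to 78.2% in ER-Hoxa9.

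Of the 61 symbols listed for both lines, 16 had a mean of at least 1 TPM in both and 27 in neither. CCR2, CXCR2, CXCR4, CCRL2, IL10RB, IL17RA, IL2RG, IL4R and both chains of the IL-12 receptor were among the shared ones. MOLM-13 alone expressed 14, which included the monocyte receptors CCR1 and CX3CR1, the IL-13 receptor chain IL13RA1, the IL-10 receptor chain IL10RA and IL27RA. ER-Hoxa9 alone expressed 4, among them the eosinophil receptor chain Il5ra, the signalling IL-1 receptor Il1r1 and the IL-18 accessory chain Il18rap. All 4 atypical chemokine receptors were below 1 TPM in both lines. CXCR1, CXCR5, CXCR6, CCR4, CCR7, CCR8 and CCR9, which guide neutrophils or lymphocytes, were also below it in both lines.

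**Figure D1:**
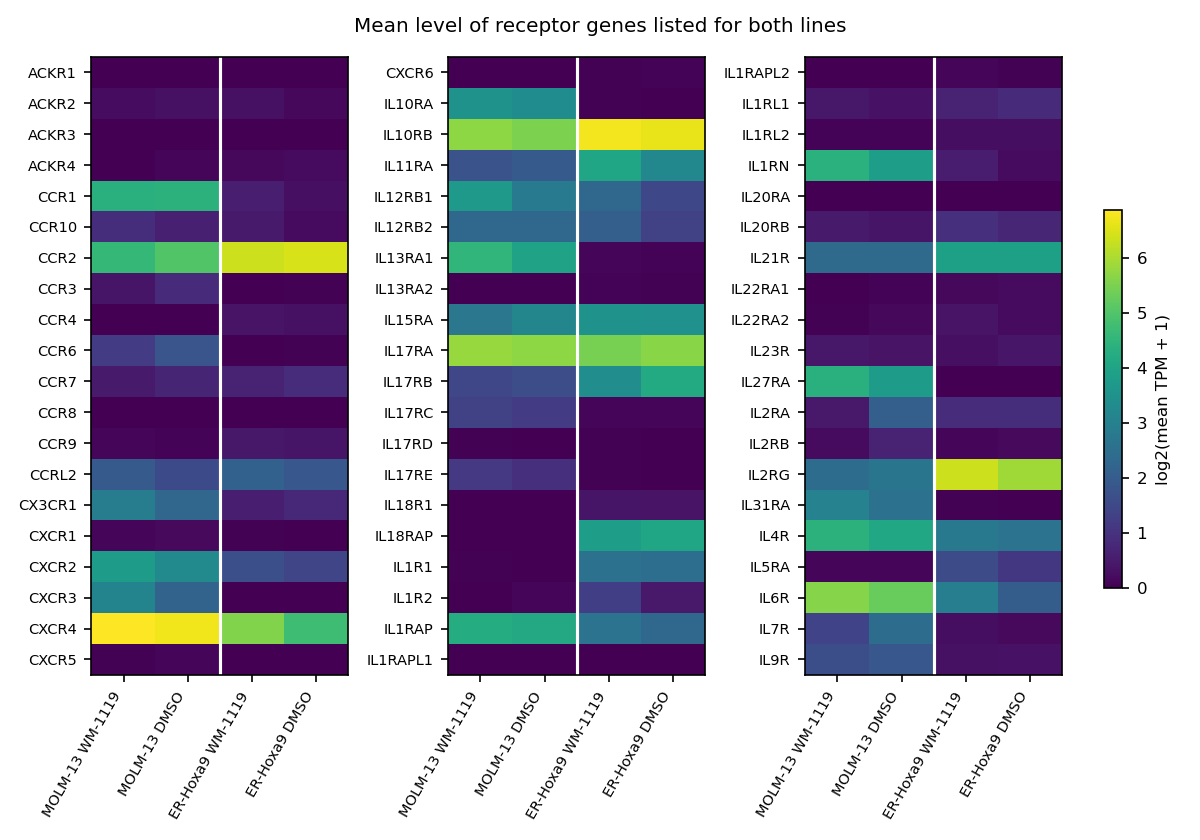
Mean level of receptor genes listed for both lines, as log2 of the group mean TPM plus 1 (colour bar), with 1 row per gene and 1 column per group, WM-1119 left of DMSO within each line; row IL11RA holds mouse Il11ra1, and IL6R and IL4R hold mouse Il6ra and Il4ra. Dark rows are genes at or near 0 TPM, such as the atypical receptors ACKR1 to ACKR4, and the brightest are CXCR4 in MOLM-13 and Il10rb in ER-Hoxa9.

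Below 1 TPM lay 34 members in MOLM-13 and 41 in ER-Hoxa9, and these were not tested. ACKR3, CCR4, CCR8, IL13RA2, IL18RAP, IL1RAPL1, IL1RAPL2, IL20RA and IL36RN were listed at 0 in all 6 MOLM-13 libraries. Ackr1, Ccr8, Cxcr3, Cxcr5, Il1rapl1 and Il20ra were listed at 0 in all 4 ER-Hoxa9 libraries. CCR10 and CCR3 were among the highest of the low members in MOLM-13. CCR3, the eotaxin receptor, read 0.366, 0.146 and 0.441 TPM with WM-1119, against 0.969, 0.827 and 0.642 TPM with DMSO. It was lower in every WM-1119 library than in every DMSO library. CCR10, a receptor for skin and mucosal chemokines, averaged 0.864 ± 0.680 TPM with WM-1119 and 0.523 ± 0.203 TPM with DMSO, and its groups overlapped. In ER-Hoxa9 the highest were Il1r2, Il2ra and Il20rb. The decoy receptor Il1r2 read 0.931 and 1.88 TPM with WM-1119, against 0.0986 and 0.661 TPM with DMSO. Il2ra averaged 0.825 ± 0.00657 and 0.880 ± 0.172 TPM, and Il20rb, a chain of the IL-20 receptors, 0.936 ± 0.192 and 0.656 ± 0.180 TPM, with WM-1119 and DMSO in that order.

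No receptor gene passed the test for a difference between WM-1119 and DMSO in MOLM-13. The test was limma on log2(TPM + 1), two-sided, with Benjamini-Hochberg adjustment over all 12436 genes that averaged 1 TPM or more. It called 0 of 31 members at an adjusted p under 0.05, against 0.00804% of all tested genes, which is 1 gene. At an unadjusted p under 0.05 it placed 6 members higher and 4 lower, against 2.08% and 0.965% of all genes. Every WM-1119 library exceeded every DMSO library for 7 members, against 4.54% of all genes, and lay below every one for 4, against 2.43%. Within same-numbered pairs of libraries 16 members were higher with WM-1119 in all 3, against 28.6% of all genes, and 6 were lower in all 3, against 14.4%. A fit with the pair as a block placed 11 members higher and 5 lower at an unadjusted p under 0.05, against 13.2% and 4.91% of all genes. That was 16 of 31 members and 2256 genes, where the fit without the block had 10 and 379. The blocked fit called 0 members and 0 genes after adjustment, with a lowest adjusted p among members of 0.108 for IL12RB1 (limma). With the block the adjusted p was 0.123 for IL27RA, 0.133 for IL13RA1 and IL10RB-AS1 and 0.141 for IL2RA (limma). It was 0.157 for IL1RN and 0.166 for CCR2 (limma). For CXCR3 it was 0.168, for IL7R, IL15RA and CCR6 0.173, for IL4R 0.178, for IL6R 0.189 and for CXCR2 0.190 (limma). Standard errors, intervals and adjusted p-values of single genes below are from the fit without the block. The log2 change was positive for 21 of the 31, or 67.7%, with a median of 0.17, against 61.5% and a median of 0.05 for all tested genes. With a median-of-ratios scaling of the TPM 259 higher and 120 lower genes at an unadjusted p under 0.05 became 274 and 204, and the members 5 and 4. Under that scaling CXCR3 and IL31RA overlapped between groups, as did CCR6. In whole cultures fewer cells of a type and less RNA per cell cannot be told apart.

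**Figure D2:**
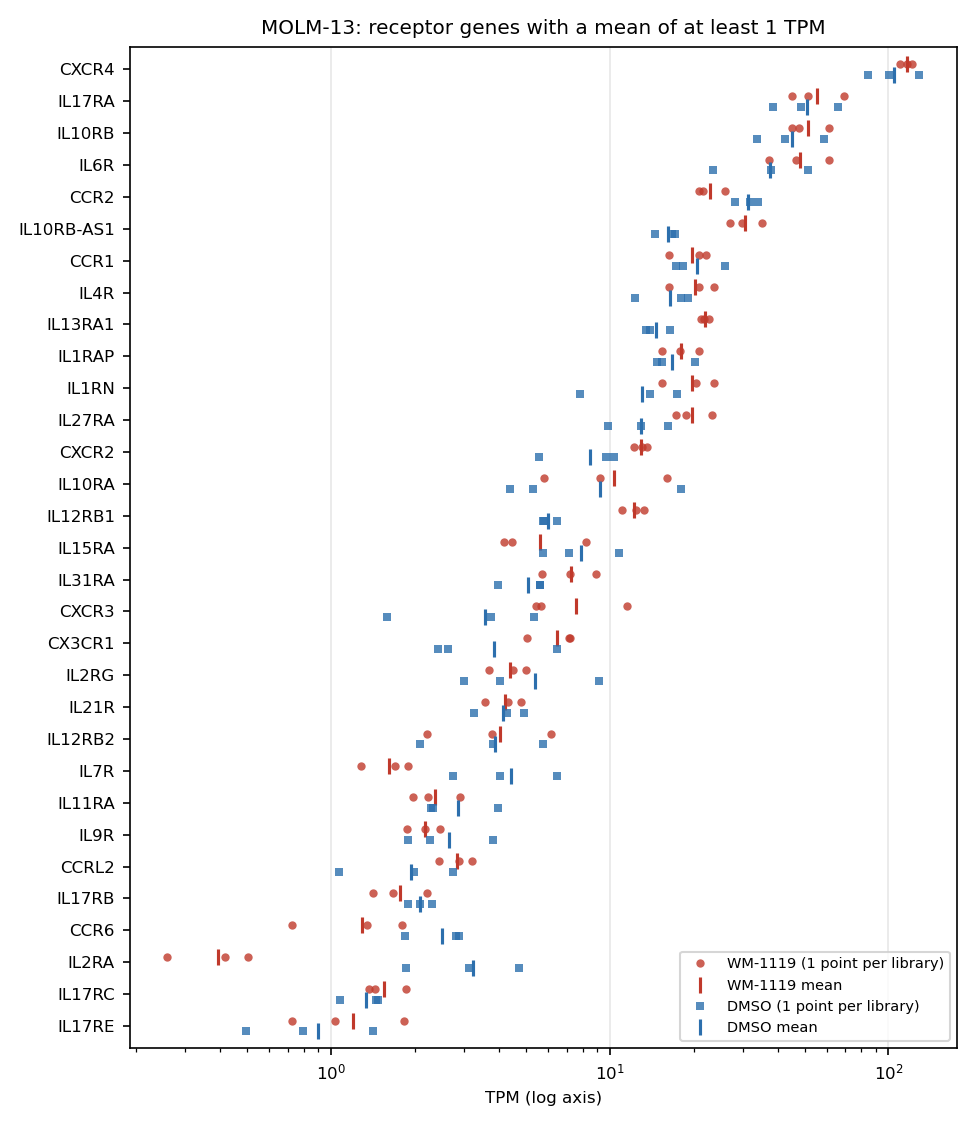
TPM (log axis) of the 31 receptor genes that averaged 1 TPM or more in MOLM-13, ordered by that mean. Red circles are the 3 WM-1119 libraries and blue squares the 3 DMSO libraries, with a bar at each group mean. IL2RA shows the widest gap, with WM-1119 libraries at 0.258 to 0.501 TPM and DMSO libraries at 1.86 to 4.73 TPM. It averaged 1 TPM or more through its DMSO libraries alone.

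Among CC chemokine receptors in MOLM-13, 4 of 11 reached 1 TPM, and CCR2 and CCR6 were lower in every WM-1119 library than in every DMSO library. CCR2, the CCL2 receptor of monocytes (GRCh38 chromosome 3, 46353734 to 46360928, plus strand), read 21.7, 26.0 and 20.9 TPM with WM-1119, against 33.9, 31.8 and 28.1 TPM with DMSO. The groups did not overlap, and the log2 change was −0.44 ± 0.18 (SE), with an adjusted p of 1.00 (limma). CCR6, the CCL20 receptor, read 1.34, 0.721 and 1.79 TPM with WM-1119, against 2.87, 1.84 and 2.81 TPM with DMSO, close to but not overlapping. CCR1, a receptor for CCL3 and CCL5, averaged 19.8 ± 3.06 TPM with WM-1119 and 20.5 ± 4.73 TPM with DMSO (SD, n = 3 each). CCR1 lies inside the span of CCR3 on the opposite strand, and whether the libraries kept strand is not stated. CCRL2, which binds chemerin and does not signal like its relatives, averaged 2.84 ± 0.387 and 1.93 ± 0.831 TPM and was higher with WM-1119 in all 3 pairs.

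All 4 expressed CXC and CX3C receptors in MOLM-13 had positive changes. CXCR4, the CXCL12 receptor and the most abundant member, read 110.01, 117 and 122 TPM with WM-1119, against 101, 129 and 84.2 TPM with DMSO. Its groups overlapped, and the 95% interval of its log2 change ran from −0.31 to 0.65. CXCR2, the CXCL8 receptor of neutrophils, read 13.04, 13.6 and 12.2 TPM with WM-1119, against 10.3, 9.66 and 5.57 TPM with DMSO. CXCR3, a receptor for interferon-induced chemokines that is best known from T cells, read 5.44, 11.5 and 5.64 TPM with WM-1119, against 3.76, 5.33 and 1.58 TPM with DMSO. Neither gene's groups overlapped, with log2 changes of 0.59 ± 0.24 for CXCR2 and 0.93 ± 0.40 for CXCR3, and both had an adjusted p of 1.00 (limma). CX3CR1, the fractalkine receptor of monocytes, averaged 6.45 ± 1.23 TPM with WM-1119 and 3.83 ± 2.27 TPM with DMSO. It was higher in each same-numbered pair, though DMSO replicate 2, at 6.45 TPM, exceeded the lowest WM-1119 library, at 5.04 TPM. CXCR2 has a close paralog in CXCR1, which was below 1 TPM here.

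IL2RA and IL7R, whose receptors use the common gamma chain, had the most negative changes of the tested members in MOLM-13. IL2RA, the alpha chain of the high-affinity IL-2 receptor (CD25; chromosome 10, 6010689 to 6062370, minus strand), read 0.501, 0.416 and 0.258 TPM with WM-1119, against 1.86, 4.73 and 3.13 TPM with DMSO. Every WM-1119 library was below every DMSO library, and the mean with WM-1119 was 0.121 times the DMSO mean. All WM-1119 libraries were also below 1 TPM, so IL2RA passed the filter on the mean through its DMSO libraries alone. That limits what its test can show. The log2 change was −1.55 ± 0.29, with a 95% interval of −2.24 to −0.87 and an adjusted p of 0.590 (limma). IL7R, the alpha chain of the IL-7 receptor (chromosome 5, 35852695 to 35879603, plus strand), read 1.69, 1.88 and 1.28 TPM with WM-1119, against 6.46, 2.74 and 4.04 TPM with DMSO. These groups did not overlap either, and the log2 change was −0.998 ± 0.28 with an adjusted p of 1.00 (limma). DMSO libraries varied more than WM-1119 libraries for both genes, with SDs of 1.44 against 0.123 TPM for IL2RA and 1.89 against 0.307 TPM for IL7R.

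IL13RA1, which pairs with IL4R in the type II receptor for IL-4 and IL-13, read 21.3, 21.8 and 22.8 TPM with WM-1119, against 13.9, 16.4 and 13.4 TPM with DMSO. Its log2 change was 0.56 ± 0.16 with an adjusted p of 1.00 (limma), and its groups were well apart. IL4R averaged 20.3 ± 3.78 TPM with WM-1119 and 16.5 ± 3.65 TPM with DMSO, higher in all 3 pairs but overlapping between groups. IL15RA, the chain that presents IL-15, averaged 5.63 ± 2.27 and 7.89 ± 2.60 TPM in the same order and was lower in all 3 pairs. IL2RG, the common gamma chain itself, read 3.68, 4.50 and 4.99 TPM with WM-1119, against 2.996, 9.18 and 4.04 TPM with DMSO, so 1 DMSO library stood above all others. IL21R averaged 4.22 ± 0.628 TPM with WM-1119 and 4.15 ± 0.832 TPM with DMSO, and IL21R-AS1 overlaps its end on the other strand. IL9R averaged 2.17 ± 0.293 and 2.65 ± 1.01 TPM in the same order, and its copies on chromosomes X and Y share reads.

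T cell and NK cell markers were read beside IL2RA, IL7R and CXCR3, because lymphocytes use these receptors. Of 13 such genes 11 were listed in MOLM-13, CD2 and LCK at 0, and their summed level was 133 to 156 TPM with WM-1119 and 98.4 to 172 TPM with DMSO. Most of it was NKG7, a cytotoxic granule gene, at 131 ± 7.74 TPM with WM-1119 and 110 ± 30.6 TPM with DMSO. CD3D, a chain of the T cell receptor complex, read 1.69, 7.05 and 5.48 TPM with WM-1119, against 3.09, 17.03 and 15.8 TPM with DMSO. It was lower with WM-1119 in each numbered pair. CD3G, another chain of that complex, went the other way without overlap, averaging 0.239 TPM with WM-1119 and 0.119 TPM with DMSO. CD3E was at or near 0. The part of these markers in the receptor values was not tested.

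**Figure D3:**
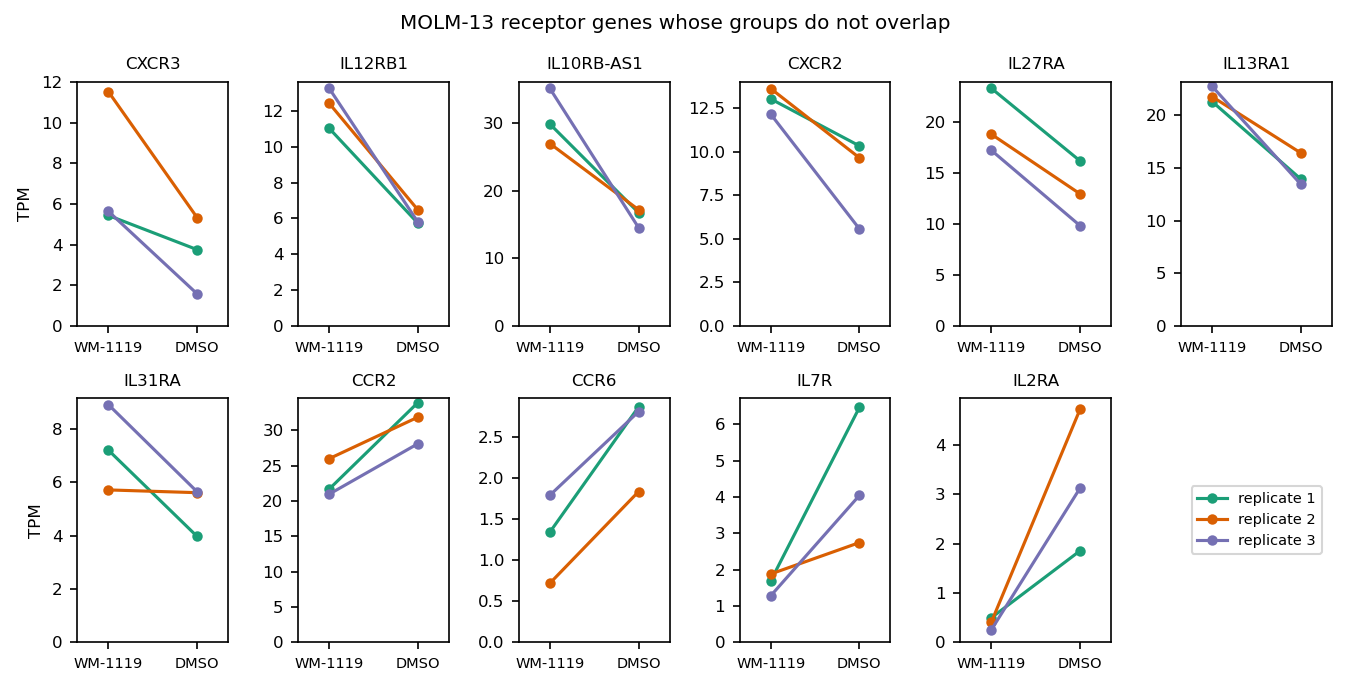
TPM of the 11 receptor genes whose WM-1119 and DMSO groups did not overlap in MOLM-13, each with its own axis from 0. Points are libraries, WM-1119 on the left and DMSO on the right, and a line joins libraries with the same replicate number. IL12RB1 shows steep, nearly parallel lines, and those of IL10RB-AS1 are steep but cross. IL31RA in replicate 2 is almost flat, at 5.71 TPM with WM-1119 and 5.603 TPM with DMSO.

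Of the 6 tested members of the IL-6 and IL-12 receptor family in MOLM-13, 3 had every WM-1119 library above every DMSO library. That stands beside 7 of all 31 tested members and 4.54% of all tested genes. After median-of-ratios scaling IL31RA, 1 of the 3, overlapped. IL12RB1, the chain shared by the receptors for IL-12 and IL-23 (chromosome 19, 18058995 to 18098944, minus strand), read 11.04, 12.4 and 13.3 TPM with WM-1119, against 5.74, 6.48 and 5.80 TPM with DMSO. Its mean was 2.04 times the DMSO mean, and its replicates were close together in both groups. The log2 change was 0.92 ± 0.16, with a 95% interval of 0.55 to 1.29 and an adjusted p of 0.436 (limma), the smallest of any member in this line. IL27RA, the private chain of the IL-27 receptor, read 23.3, 18.8 and 17.2 TPM with WM-1119, against 16.2, 12.9 and 9.82 TPM with DMSO. The difference was similar in each pair, and the log2 change was 0.59 ± 0.22. IL31RA, the private chain of the IL-31 receptor, read 7.20, 5.71 and 8.90 TPM with WM-1119, against 3.97, 5.603 and 5.64 TPM with DMSO, apart by little in replicate 2.

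The other tested chains of that family overlapped between groups. IL12RB2, the partner of IL12RB1 for IL-12, read 6.15, 3.79 and 2.20 TPM with WM-1119, against 5.74, 3.80 and 2.08 TPM with DMSO. It varied between replicate numbers far more than between treatments. IL6R averaged 48.3 ± 12.03 TPM with WM-1119 and 37.6 ± 13.9 TPM with DMSO, higher in all 3 pairs but overlapping between groups. With the pair as a block its unadjusted p was 0.0126, against 0.0411 for IL31RA, and neither passed after adjustment (limma). IL11RA averaged 2.36 ± 0.482 TPM with WM-1119 and 2.86 ± 0.964 TPM with DMSO. IL6ST (gp130), the signalling chain that IL6R, IL11RA and IL27RA use, averaged 1.95 ± 0.385 TPM with WM-1119 and 1.66 ± 0.390 TPM with DMSO.

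IL10RB-AS1, annotated as IL10RB-DT and not a receptor, was the third member by p-value in MOLM-13. It read 29.9, 27.0 and 35.2 TPM with WM-1119, against 16.8, 17.2 and 14.5 TPM with DMSO. The log2 change was 0.88 ± 0.18, with a 95% interval of 0.46 to 1.30 and an adjusted p of 0.635 (limma), and the groups did not overlap. The transcript lies on chromosome 21 at 33263873 to 33266260 on the minus strand, 97 bases from the start of IL10RB, which runs away from it on the plus strand. IL10RB, the chain shared by the receptors for IL-10, IL-22 and related cytokines, read 45.1, 61.0 and 47.8 TPM with WM-1119, against 42.6, 58.9 and 33.7 TPM with DMSO. Its groups overlapped, although each WM-1119 library exceeded its numbered partner. IL10RA, the private IL-10 chain, read 5.80, 16.1 and 9.19 TPM with WM-1119, against 4.40, 18.0 and 5.29 TPM with DMSO, and replicate 2 was highest in both groups.

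The remaining MOLM-13 members belonged to the IL-1 and IL-17 families, and their groups overlapped. IL1RAP, the accessory chain of IL-1 family receptors, averaged 18.1 ± 2.77 TPM with WM-1119 and 16.8 ± 3.001 TPM with DMSO. IL1RN, the secreted IL-1 receptor antagonist, read 20.3, 23.7 and 15.3 TPM with WM-1119, against 14.0, 17.4 and 7.85 TPM with DMSO, higher in all 3 pairs. IL17RA, the chain common to IL-17 receptors and the second most abundant member, averaged 55.3 ± 12.7 and 51.0 ± 13.9 TPM in the same order. Its partners were scarce. IL17RB averaged 1.77 ± 0.409 and 2.09 ± 0.204 TPM, IL17RC 1.55 ± 0.267 and 1.33 ± 0.224 TPM, and IL17RE 1.20 ± 0.570 and 0.901 ± 0.469 TPM, each with WM-1119 before DMSO.

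In ER-Hoxa9 no receptor gene passed the test either. Limma called 0 of 20 members at an adjusted p under 0.05, against 0.0352% of the 11362 genes tested, which is 4 genes. At an unadjusted p under 0.05 it placed 6 members higher with WM-1119 and 0 lower, against 11.6% and 1.13% of all genes. Both WM-1119 libraries exceeded both DMSO libraries for 11 members, against 40.3% of all genes, and lay below both for 0, against 7.94%. The log2 change was positive for 16 of the 20, or 80%, with a median of 0.26, against 71.9% and a median of 0.12 for all genes. Higher values with WM-1119 were thus common among all genes of this line in the deposited TPM. With a median-of-ratios scaling the median of all genes moved from 0.12 to −0.01, and 1322 higher and 128 lower genes became 696 and 453. The 6 and 0 members remained 6 and 0 in number. Under that scaling 9 members lay above in both libraries, without Ccrl2 and Cxcr2, against 21.2% of all genes, and Il17ra and Il17rb lay below, against 24.2%.

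**Figure D4:**
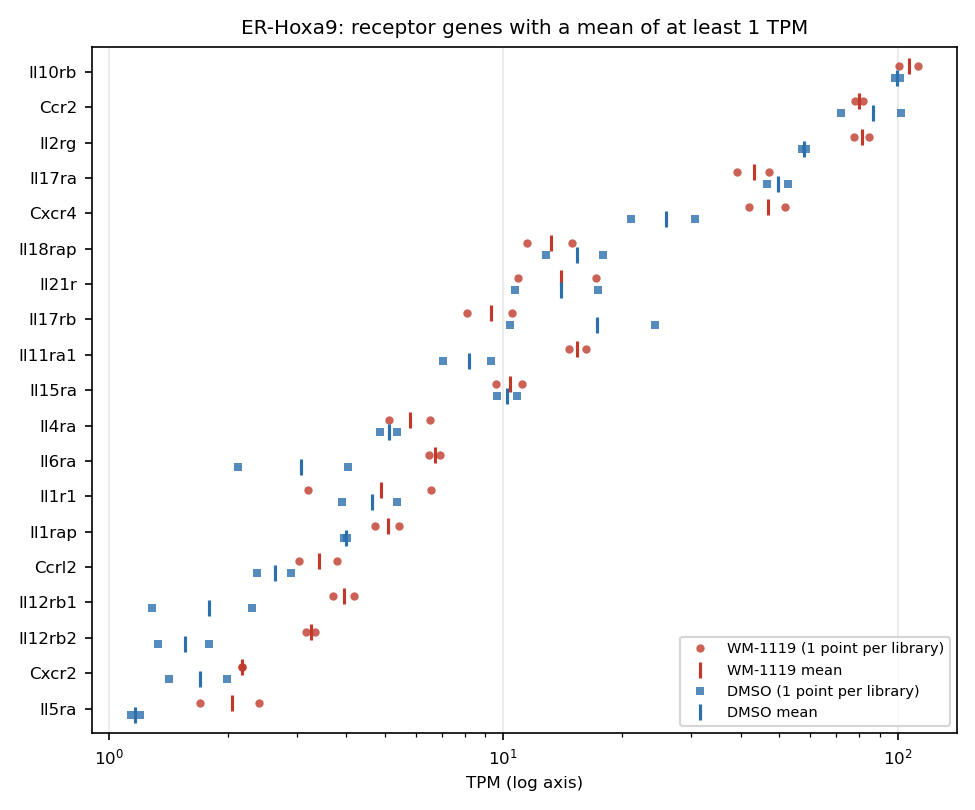
TPM (log axis) of receptor genes that averaged 1 TPM or more in ER-Hoxa9, ordered by that mean. Red circles are the 2 WM-1119 libraries and blue squares the 2 DMSO libraries, with a bar at each group mean. Il10rb is highest, at 101 and 112 TPM with WM-1119, and the Il6ra, Il11ra1, Il12rb1 and Il12rb2 groups stand apart.

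All 4 expressed members of the IL-6 and IL-12 receptor family lay above both DMSO libraries in both WM-1119 libraries of ER-Hoxa9, as did 40.3% of all tested genes, and none of the 4 passed the adjusted test. Il6ra, the IL-6 receptor chain, read 6.47 and 6.92 TPM with WM-1119, against 2.12 and 4.03 TPM with DMSO. Its log2 change was 0.96 ± 0.26 with an adjusted p of 0.312 (limma), and DMSO replicate 1 was the lower of its controls. Il11ra1, the IL-11 receptor chain, read 16.2 and 14.7 TPM with WM-1119, against 7.02 and 9.33 TPM with DMSO. That was a log2 change of 0.85 ± 0.17 with an adjusted p of 0.305 (limma), the smallest of any member in this line. The mouse genome has near-identical copies of this gene, so its reads could be split. Il12rb1 read 4.19 and 3.69 TPM with WM-1119, against 1.29 and 2.31 TPM with DMSO, a log2 change of 0.84 ± 0.24. Its partner Il12rb2 read 3.17 and 3.34 TPM with WM-1119, against 1.33 and 1.79 TPM with DMSO, a log2 change of 0.74 ± 0.20. Both chains of the IL-12 receptor thus had about the same level and a mean just over 2 times that of DMSO, 2.19 times for Il12rb1 and 2.08 times for Il12rb2. Il6st averaged 2.63 ± 0.101 TPM with WM-1119 and 1.79 ± 0.456 TPM with DMSO.

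Among chemokine receptors in ER-Hoxa9, Cxcr4 differed most between groups. It read 42.1 and 51.8 TPM with WM-1119, against 21.1 and 30.7 TPM with DMSO. The groups did not overlap, and the log2 change was 0.85 ± 0.21 with an adjusted p of 0.312 (limma). Ccr2 was the most abundant chemokine receptor, with 78.1 and 81.6 TPM under WM-1119, against 71.8 and 102 TPM under DMSO, and its WM-1119 libraries lay between the DMSO ones. Ccrl2 averaged 3.42 ± 0.538 and 2.63 ± 0.369 TPM, and Cxcr2 2.17 ± 0.0000177 and 1.70 ± 0.406 TPM, each with WM-1119 before DMSO and n = 2. Ccr1, Cx3cr1 and Cxcr3, all expressed in MOLM-13, were below 1 TPM.

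Il2rg, the common gamma chain, was abundant in ER-Hoxa9 and its replicates were tight. It read 84.6 and 77.8 TPM with WM-1119, against 58.7 and 57.3 TPM with DMSO, with no overlap. The log2 change was 0.48 ± 0.11, with a 95% interval of 0.20 to 0.75 and an adjusted p of 0.306 (limma). The private chains of this family differed by less than their spread. Il21r averaged 14.0 ± 4.41 TPM with WM-1119 and 14.0 ± 4.70 TPM with DMSO, Il15ra 10.4 ± 1.14 and 10.2 ± 0.811 TPM, and Il4ra 5.81 ± 0.980 and 5.14 ± 0.359 TPM. Il7r, Il9r and Il13ra1, which MOLM-13 expressed, were below 1 TPM.

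Il10rb was the highest member of ER-Hoxa9, with 112 and 101 TPM under WM-1119, against 101 and 98.4 TPM under DMSO. The 95% interval of its log2 change ran from −0.19 to 0.38. The IL-17 receptor chains were the only expressed family of this line with no positive change. Il17ra read 39.2 and 47.2 TPM with WM-1119, against 52.7 and 46.7 TPM with DMSO. Il17rb, which pairs with Il17ra for IL-25, read 10.5 and 8.11 TPM with WM-1119, against 24.2 and 10.4 TPM with DMSO, and DMSO replicate 1 set most of its difference. Its log2 change was −0.73 ± 0.39, and WM-1119 replicate 1 exceeded DMSO replicate 2 by little.

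In the IL-1 and IL-18 family Il18rap averaged 13.2 ± 2.46 TPM with WM-1119 and 15.4 ± 3.58 TPM with DMSO. Its partner Il18r1 was below 1 TPM. Il1r1 averaged 4.88 ± 2.38 and 4.64 ± 1.06 TPM in the same order, and its accessory chain Il1rap 5.09 ± 0.513 and 3.98 ± 0.0463 TPM, with no overlap for Il1rap. Il5ra, the private IL-5 chain of eosinophil precursors, read 2.40 and 1.70 TPM with WM-1119, against 1.20 and 1.14 TPM with DMSO. Csf2rb, the chain it signals with, averaged 37.4 ± 6.77 TPM with WM-1119 and 21.2 ± 6.64 TPM with DMSO.

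Myeloid identity genes were read beside these values. In ER-Hoxa9 12 of 13 tested had a positive change, against 71.9% of all genes, and 9 lay above both DMSO libraries, against 40.3%. Their summed level was 7072 to 7670 TPM with WM-1119 and 4684 to 6472 TPM with DMSO. Mpo, myeloperoxidase, read 1419 and 1512 TPM with WM-1119, against 385 and 1380 TPM with DMSO, so DMSO replicate 1 stood far below the rest. In MOLM-13 12 of 13 were positive, against 61.5% of all genes, and 2 lay above, against 4.54%, with sums of 9389 to 13986 TPM with WM-1119 and 7578 to 13469 TPM with DMSO. None passed the adjusted test in either line, and their part in the receptor values was not tested.

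**Figure D5:**
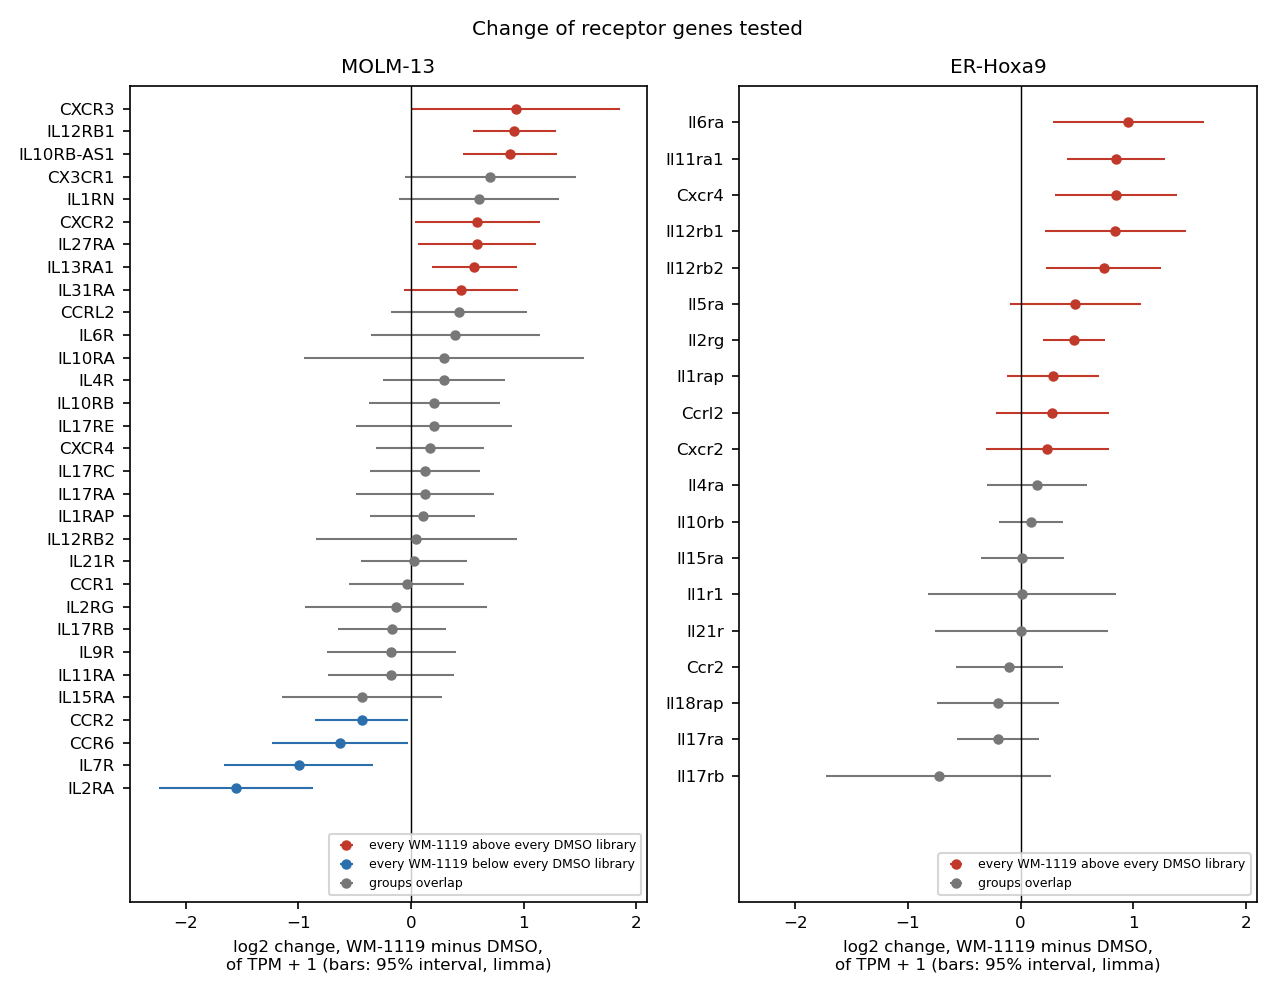
Log2 change of TPM plus 1, WM-1119 minus DMSO, for tested receptor genes of MOLM-13 (left) and ER-Hoxa9 (right); bars are 95% intervals from limma. Red marks genes whose WM-1119 libraries all lay above the DMSO libraries, blue those all below, and grey those that overlap. Blue points appear in MOLM-13 alone, from −0.44 for CCR2 to −1.55 for IL2RA, and IL12RB1 and Il12rb1 are red at 0.92 and 0.84.

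IL12RB1 was one of a pair of receptors whose groups did not overlap, with WM-1119 higher, in both lines: its mean was 2.04 times DMSO in MOLM-13 and 2.19 times in ER-Hoxa9. CXCR2 was the other, at 1.52 and 1.27 times, and it overlapped in ER-Hoxa9 after median-of-ratios scaling. Of all tested genes 4.54% in MOLM-13 and 40.3% in ER-Hoxa9 lay above DMSO without overlap. The share that did so in both lines was not computed. The order of levels differed between the lines. CXCR4, IL17RA, IL10RB and IL6R led in MOLM-13, where the IL17RA, IL10RB and IL6R groups overlapped each other. Il10rb, Ccr2, Il2rg and Il17ra led in ER-Hoxa9, where Ccr2 and Il2rg with WM-1119 overlapped. The tables were fitted separately, and the difference between lines was not tested.

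The ligands of these receptors were listed as well, and none passed the adjusted test in either line. Of 41 chemokine genes listed in MOLM-13, 10 were tested, with a median log2 change of −0.02. CCL5, a ligand of CCR1, averaged 265 ± 97.5 TPM with WM-1119 and 310.3 ± 191 TPM with DMSO. CCL23, a CCR1 ligand, read 114, 62.9 and 84.9 TPM with WM-1119, against 61.1, 40.3 and 25.8 TPM with DMSO, with no overlap and a log2 change of 1.07 ± 0.35. In ER-Hoxa9 7 of 36 listed chemokine genes were tested, all with a positive change, against 71.9% of all tested genes, and 5 above both DMSO libraries, against 40.3%. Ccl9, a mouse Ccr1 ligand, averaged 282 ± 21.6 TPM with WM-1119 and 162 ± 43.3 TPM with DMSO, and Ccl3 averaged 20.0 ± 1.03 and 7.05 ± 4.70 TPM. CXCL12, the ligand of the abundant CXCR4, was at or near 0 in both lines.

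Of 37 interleukin genes listed in MOLM-13, 4 reached 1 TPM, and 3 of them had positive changes. IL18 averaged 11.4 ± 0.977 TPM with WM-1119 and 12.97 ± 1.63 TPM with DMSO, and IL16 8.87 ± 1.36 and 5.96 ± 1.92 TPM. MOLM-13 thus listed IL18 without either chain of its receptor at 1 TPM. In ER-Hoxa9 6 of 33 were tested. Il6 averaged 25.5 ± 12.1 TPM with WM-1119 and 23.1 ± 2.12 TPM with DMSO. Ebi3, a subunit of IL-27, read 29.8 and 17.02 TPM with WM-1119, against 7.78 and 8.30 TPM with DMSO, with no overlap.

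Most signalling partners had a mean of at least 1 TPM in each line, and none passed the adjusted test. Their counts of positive changes stand beside 61.5% of all tested genes in MOLM-13 and 71.9% in ER-Hoxa9. Of the JAK and STAT genes 9 of 11 were tested in MOLM-13, 8 with a positive change. JAK3 and STAT4, at means of 0.594 and 0.0197 TPM over all MOLM-13 libraries, fell below the filter. STAT6, which IL4R activates, averaged 93.6 ± 12.3 TPM with WM-1119 and 79.2 ± 9.74 TPM with DMSO, and TYK2, which binds IL12RB1, 72.6 ± 3.40 and 64.7 ± 7.45 TPM. In ER-Hoxa9 all 11 were tested, 10 with a positive change. Jak1 averaged 40.1 ± 0.152 TPM with WM-1119 and 35.2 ± 3.37 TPM with DMSO, and Stat5a 34.6 ± 0.652 and 38.6 ± 1.69 TPM.

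The 12 adaptor genes of IL-1 and IL-17 receptors were tested in both lines, 11 with a positive change in each. IRAK1, a kinase of the IL-1 pathway, averaged 68.0 ± 8.59 TPM with WM-1119 and 63.1 ± 9.70 TPM with DMSO in MOLM-13, and MYD88 31.6 ± 7.60 and 24.3 ± 6.90 TPM. In ER-Hoxa9 Tab2 averaged 66.1 ± 4.58 and 62.8 ± 6.84 TPM, and Irak1 65.3 ± 4.15 and 58.3 ± 3.19 TPM, in the same order of groups. Of the chemokine receptor signalling genes 18 of 20 tested in MOLM-13 and 17 of 18 in ER-Hoxa9 had a positive change. Pik3r5 and Grk5 averaged 0.839 and 0.889 TPM over the ER-Hoxa9 libraries and were not tested there. RAC2, a GTPase of leukocyte migration, averaged 418 ± 46.0 TPM with WM-1119 and 405 ± 133 TPM with DMSO in MOLM-13, and GNAI2, the G protein alpha subunit most used by chemokine receptors, 211 ± 19.4 and 168 ± 29.8 TPM. In ER-Hoxa9 Gnb2 averaged 430.4 ± 8.08 TPM with WM-1119 and 389.7 ± 11.8 TPM with DMSO, and Gnai2 321 ± 17.7 and 254 ± 25.0 TPM, neither overlapping. Of related chains outside the name rule 9 were tested in each line, 8 with a positive change in MOLM-13 and 6 in ER-Hoxa9. IFNGR2 and IFNGR1, the interferon gamma receptor, averaged 55.7 ± 6.57 and 51.9 ± 3.78 TPM with WM-1119 in MOLM-13, against 45.3 ± 14.3 and 47.2 ± 4.41 TPM with DMSO. Sigirr, an inhibitory IL-1 family receptor, averaged 142 ± 11.7 TPM with WM-1119 and 156 ± 7.24 TPM with DMSO in ER-Hoxa9, and Crlf2, the TSLP receptor chain, 143 ± 22.6 and 145 ± 45.6 TPM.

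None of the markers of other cell types passed the adjusted test. Some did not overlap between groups, among them PECAM1 in MOLM-13 and Cd79a, Cd79b and Gp9 in ER-Hoxa9, all higher with WM-1119. Cd3d and Lck were lower without overlap in ER-Hoxa9. Of all tested genes 4.54% in MOLM-13 and 40.3% in ER-Hoxa9 lay above DMSO without overlap, and 7.94% in ER-Hoxa9 below. B cell markers summed to 2.39 to 3.24 TPM with WM-1119 and 1.94 to 3.09 TPM with DMSO in MOLM-13, among them CD79A at 0.749 ± 0.380 and 0.634 ± 0.376 TPM. In ER-Hoxa9 they summed to 82.6 to 87.9 and 48.5 to 65.8 TPM, led by Cd79b at 42.4 ± 2.24 and 23.5 ± 6.46 TPM and Ebf1 at 31.9 ± 8.59 and 30.3 ± 3.88 TPM. MS4A1 and Ms4a1, which encode CD20, were listed at 0. T cell and NK cell markers in ER-Hoxa9 summed to 34.0 to 34.5 TPM with WM-1119 and 23.9 to 32.4 TPM with DMSO, with Cd3e, Cd3g and Cd2 at 0. They were led by Ncam1 at 15.4 ± 0.634 and 11.2 ± 0.531 TPM and Nkg7 at 8.505 ± 1.97 and 5.47 ± 5.50 TPM.

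Eosinophil, basophil and mast cell markers summed to 191 to 295 TPM with WM-1119 and 92.2 to 322 TPM with DMSO in MOLM-13, where PRG2 averaged 191 ± 64.1 and 190.01 ± 113 TPM and GATA2 23.4 ± 7.63 and 26.0 ± 14.5 TPM. In ER-Hoxa9 they summed to 389 to 1181 and 660 to 952 TPM, with Cpa3 at 583 and 158 TPM under WM-1119, against 630 and 362 TPM under DMSO, and Prg3 at 169 ± 144 and 94.3 ± 11.9 TPM. WM-1119 replicate 1 of ER-Hoxa9 thus had the highest sum of these markers, though not the highest level of each. Prg2, Prg3, Siglecf and Hdc were highest in it, while Cpa3 and Gata2 were highest in DMSO replicate 1 and Mcpt8 in DMSO replicate 2. Il5ra and Il1r1 were also highest in WM-1119 replicate 1. The part of these markers in those receptor values was not tested. Erythroid and megakaryocyte markers summed to 20.3 to 319 TPM with WM-1119 and 15.3 to 222 TPM with DMSO in MOLM-13, because HBA1, at 158 and 95.2 TPM, and HBA2, at 89.0 and 60.9 TPM, were high in replicate 3 alone. In ER-Hoxa9 Gp9 averaged 27.3 ± 1.79 and 8.60 ± 4.14 TPM and Itga2b 13.9 ± 2.81 and 15.5 ± 0.769 TPM, with sums of 51.5 to 60.6 and 24.7 to 43.4 TPM. Stromal and endothelial markers summed to 50.3 to 61.8 TPM with WM-1119 and 32.2 to 49.7 TPM with DMSO in MOLM-13, led by PECAM1 at 48.2 ± 5.55 and 30.3 ± 7.49 TPM and ACTA2 at 8.004 ± 2.25 and 8.24 ± 0.560 TPM. In ER-Hoxa9 they summed to 91.9 to 101 and 75.9 to 92.9 TPM, led by Pecam1 at 80.3 ± 11.6 and 67.8 ± 16.1 TPM and Pdgfrb at 15.2 ± 4.90 and 15.9 ± 4.42 TPM. Only 2 of these 8 markers averaged 1 TPM or more in each line. They were PECAM1 and ACTA2 in MOLM-13, and Pecam1 and Pdgfrb in ER-Hoxa9.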

How the data were processed

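RNA was extracted on RNeasy columns and sequenced by a commercial company, as the labels' protocols state. For each line the authors deposited 1 table of TPM, with gene symbols in rows, made with Salmon against hg38 or mm10, per the submitters' processing notes. Neither the Salmon version, the annotation nor the strandedness is given in the sources used here. TPM keep no depth, and a transcript that takes a larger share lowers all others. Columns were matched to samples by treatment and number. The mouse columns carry another line name and were taken as ER-Hoxa9, the mouse line of the series. No columns of values lacked a sample, and 0 pairs of libraries were identical.

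Within each line, genes that averaged 1 TPM or more were fitted on log2(TPM + 1) with limma 3.58.1 (lmFit, eBayes with trend, two-sided, Benjamini-Hochberg over all genes fitted) in R 4.3.3, without a replicate block. Fold changes on this scale understate those of low genes. The fit was tested on simulated data. Figures used matplotlib 3.10.9. In MOLM-13 same-numbered libraries deviated together from their group means, with correlations across genes of 0.52, 0.44 and 0.61, all above 0.1, which is the mark of pairing used here. What a number stands for is not stated. The fit reported leaves the pairing out, so its standard errors include the spread between pairs; a fit with the pair as a block is given beside the counts.

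The members, the gene lists and the tests were chosen with earlier results of these data known. Every member that averaged 1 TPM or more was named, as were the 3 highest below it, those at 0, and the 2 most abundant genes of a list with no call. Il6st, Csf2rb, CXCL12, CD3D, CD3G, CD3E and the ER-Hoxa9 markers Prg2, Siglecf, Hdc, Gata2 and Mcpt8 are named beyond that rule or for their values. JAK3, STAT4, Pik3r5, Grk5, Cd79a, Cd3d and Lck are named for their values too. Counts include members that are not reported here by name. Human positions are from GRCh38 with GENCODE release 29. Promoters are from RefSeq on GRCh38.p14. Mouse coordinates were not used here. Alternatives were another pseudocount, no filter, median-of-ratios scaling, removal of microRNA and small nucleolar RNA entries, the replicate block and each library left out.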

Additional observations from a re-analysis of the deposited data

Results flagged for a closer look

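For 3 of the receptors named here the WM-1119 and DMSO values ran in opposite directions in the lines, in every same-numbered pair of MOLM-13 and without overlap in ER-Hoxa9. Of all tested genes 28.6% were higher and 14.4% lower in every such pair of MOLM-13. In ER-Hoxa9 40.3% lay above and 7.94% below without overlap, and the share with opposite directions was not computed. The difference between the lines was not tested, and the doses were 4 and 2 µM. CX3CR1 had a mean with WM-1119 of 1.68 times DMSO in MOLM-13, and Cx3cr1 of 0.677 times in ER-Hoxa9, where it was below 1 TPM. IL7R had 0.366 times the DMSO mean in MOLM-13, and Il7r 1.58 times in ER-Hoxa9, at 0.227 and 0.157 TPM with WM-1119 against 0.123 and 0.120 TPM with DMSO. IL11RA had 0.826 times the DMSO mean in MOLM-13, and Il11ra1 1.89 times in ER-Hoxa9, both above 1 TPM. The CX3CR1 and IL11RA groups overlapped in MOLM-13, and the IL11RA change did not keep its sign in every fit with a library left out.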

How the results depend on the processing

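No receptor gene was called in either line under any alternative run, and the lowest adjusted p of a member was 0.101 (limma) for IL12RB1, with the replicate block and median-of-ratios scaling, and 0.138 for Il6ra, without ER-Hoxa9 DMSO replicate 2. Genes called in MOLM-13, 1 in the fit as reported, were 0 without a filter, with small RNA entries removed, with the replicate block, with block and scaling, and with the block and any pair left out. Leaving out 1 library gave 0 to 6. In ER-Hoxa9 4 became 0 at a pseudocount of 0.1, 0 without a filter, 1 with small RNA entries removed, and 0 with the replicate block, with block and scaling, and in each fit without a library. Deviations within its 2 pairs correlated at 0.21 across genes, above the mark of 0.1 used for MOLM-13. With 2 libraries a group both pairs must give the same value, so the numbers were not taken as pairs. A threshold of 5 TPM left 19 members in MOLM-13 and 11 in ER-Hoxa9.

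Of 462 log2 changes of members recomputed in MOLM-13, 437 kept their direction and 25 in 10 genes did not. Of 200 in ER-Hoxa9, 183 did and 17 in 7 genes did not. The cause was not tested. Median-of-ratios scaling, with or without the block, gave −0.0071 for IL12RB2, −0.032 for IL21R, −0.054 for Il10rb, −0.12 for Il15ra, −0.11 for Il1r1 and −0.13 for Il21r. With the block and pair 1 left out CCR1 was 0.023 and IL21R −0.011. Without pair 2 CCR1 was 0.053, IL2RG 0.24 and IL9R 0.038, and without pair 3 CXCR4 was −0.0082 and IL21R −0.029. Leaving out 1 library at a time, the changes ranged from −0.14 to 0.14 for CCR1, −0.053 to 0.86 for IL10RA, −0.29 to 0.015 for IL11RA, −0.25 to 0.34 for IL12RB2, −0.057 to 0.32 for IL17RA, −0.0038 to 0.24 for IL1RAP, −0.11 to 0.13 for IL21R, −0.42 to 0.26 for IL2RG and −0.33 to 0.0398 for IL9R in MOLM-13. In ER-Hoxa9 they ranged from −0.35 to 0.15 for Ccr2, −0.085 to 0.12 for Il15ra, −0.43 to 0.023 for Il18rap, −0.41 to 0.44 for Il1r1, −0.32 to 0.33 for Il21r and −0.0027 to 0.29 for Il4ra. Unknown depth and the number of libraries limit all of these values.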

Other observations

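Most interleukin receptors need more than 1 chain, so the levels were also read by complex, a grouping made after the values were seen. Of 22 receptors with known chains, all chains had a mean of at least 1 TPM for 12 in MOLM-13 and for 8 in ER-Hoxa9. Some chain was below it for 9 and 13, and every chain for 1 in each line, the IL-18 receptor in MOLM-13 and the IL-31 receptor in ER-Hoxa9. In MOLM-13 the complete ones included the receptors for IL-4, IL-6, IL-10, IL-12, IL-13 and IL-27. In ER-Hoxa9 they included those for IL-1, IL-5, IL-6, IL-11, IL-12 and IL-25.

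Single missing chains marked several receptors. IL2RB, the beta chain for IL-2 and IL-15, averaged 0.373 TPM over all MOLM-13 libraries and Il2rb 0.112 TPM in ER-Hoxa9. By these means neither line had every chain of the high-affinity IL-2 or IL-15 receptor at 1 TPM. DMSO replicate 2 of MOLM-13 differed from that mean, with IL2RB at 1.52 TPM. In that library IL2RA read 4.73, IL2RG 9.18 and IL15RA 5.74 TPM, so all chains of both receptors exceeded 1 TPM. IL23R averaged 0.319 TPM in MOLM-13 and Il23r 0.275 TPM in ER-Hoxa9, so the IL12RB1 chain lacked its IL-23 partner at that level in both. Il10ra averaged 0.0114 TPM in ER-Hoxa9 beside Il10rb at 103 TPM. IL1R1 averaged 0.0176 TPM in MOLM-13 beside IL1RAP at 17.4 TPM and the antagonist IL1RN.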
